A study of Mus musculus with 8 samples.

Results

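The binding of Bcl11b was followed at 7 genes that act in the choice between the CD4 and the CD8 lineage of T cells, Zbtb7b, Cd4, Cd8a, Cd8b1, Tox, Satb1 and Themis. The intervals of these genes were those of the deposited normalized table whose nearest protein-coding gene body (RefSeq, mm10 coordinates) was 1 of the 7 and lay within 100 kb of the interval's midpoint. They numbered 101 of 63098 intervals of equal length, with 10 at Zbtb7b, 4 at Cd4, 10 at Cd8a, 17 at Cd8b1, 18 at Tox, 33 at Satb1 and 9 at Themis. Bcl11b was precipitated from cross-linked mouse thymocytes of 2 genotypes, Bcl11b+/N440K, which carry 1 mutant allele next to 1 wild type allele, and Bcl11b+/+ (wild type), with 3 ChIP libraries each. The age and strain of the animals are not given in the sources used here, nor is it stated whether each library came from its own animal. The p-values therefore cover the spread among libraries alone, which could be technical. The labels do not say that the antibody tells mutant from wild type protein, so the values are read as those of both together.

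Before this choice thymocytes carry both coreceptors, CD4 and CD8, and then they keep 1 of them according to the class of MHC molecule their receptor recognises. Zbtb7b encodes ThPOK, the zinc finger repressor that commits cells to the CD4 lineage, and is opposed by Runx3 in the CD8 lineage. Tox, an HMG box protein, and Satb1, an organiser of chromatin, act upstream of this choice, and Themis encodes a signalling adaptor that thymocytes need for positive selection. Cd4, Cd8a and Cd8b1 encode the coreceptors and have long served as models of how enhancers and silencers switch genes on and off in T cells. Bcl11b is a zinc finger factor that T cells need for commitment and for the regulation of these genes.

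Of the 101 intervals, 1 passed the test across the genome, an interval just upstream of Zbtb7b where signal was 2.07-fold higher in N440K than in wild type, and 0 were called lower. Called here means an adjusted p under 0.05 (Benjamini-Hochberg) in edgeR's quasi-likelihood test. Over all tested intervals 1.14% were called, 0.46% higher and 0.681% lower. Log2 fold changes of the 101 intervals (N440K over wild type) had a median of -0.05, 45 being positive and 56 negative, beside a median of 0.00 over all tested intervals. An unadjusted p under 0.05 was found for 16 of them (15.8%), 7 higher and 9 lower, against 12.7% of all tested intervals. At 13 of them (12.9%) every N440K library lay on 1 side of every wild type library, against 17.3% of all tested intervals. In the top quartile of CPM over all tested intervals lay 51 of the 101. These had a median of -0.02 and 54.9% negative, against 0.06 and 39.0% for all there. At an unadjusted edgeR p under 0.05 these members were 2 higher and 6 lower, and all intervals there 1440 higher and 593 lower. In the lowest quartile, with 10 members, the medians were 0.08 for members and -0.08 for all. These differences were not tested. ChIP on whole thymocyte populations cannot tell fewer bound cells from weaker binding per cell, and the shares of CD4 and CD8 cells in these samples are not given in the sources used here.

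**Figure D1:**
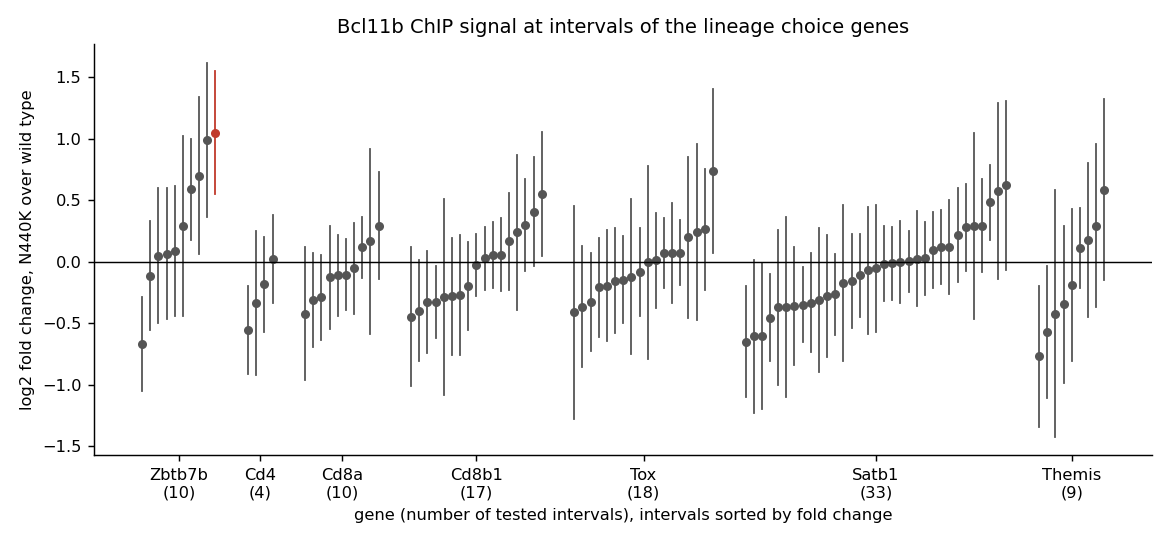
Log2 fold change of the normalized Bcl11b ChIP signal, N440K over wild type, with its 95% interval from the edgeR fit, for each of the 101 intervals, grouped by gene. The 1 called interval, at Zbtb7b with a log2 fold change of 1.05, is drawn in red; 85 of the 101 values lie between -0.5 and 0.5.

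The promoters of these genes are shown because several intervals lie on them. A promoter sequence was found in RefSeq (GRCm38.p6, the coordinates of mm10) for 4 of the 7 genes, Zbtb7b, Cd8a, Themis and Satb1, with 10 annotated starts. Of the 10 windows, each from 250 bases before to 50 bases after a start, 5 overlapped a tested interval, against 33.1% of 32851 windows of all genes. The windows of the Themis starts overlapped each other and the same interval, so the 5 are not independent. The 250 bases before the start are printed below, 5′ to 3′ on the strand of the gene. For Cd8a (chr6:71373177-71373426, plus strand), Themis (chr10:28668110-28668359, plus strand) and an internal start of Satb1 (chr17:51826589-51826838, minus strand), capitals mark the bases inside a tested interval, 36 bases at Cd8a, 110 at Themis and 136 at Satb1.
Cd8a: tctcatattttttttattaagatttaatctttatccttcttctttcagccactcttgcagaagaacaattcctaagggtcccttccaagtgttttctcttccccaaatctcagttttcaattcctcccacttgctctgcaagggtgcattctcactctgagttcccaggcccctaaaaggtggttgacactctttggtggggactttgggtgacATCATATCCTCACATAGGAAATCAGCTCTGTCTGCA
Themis: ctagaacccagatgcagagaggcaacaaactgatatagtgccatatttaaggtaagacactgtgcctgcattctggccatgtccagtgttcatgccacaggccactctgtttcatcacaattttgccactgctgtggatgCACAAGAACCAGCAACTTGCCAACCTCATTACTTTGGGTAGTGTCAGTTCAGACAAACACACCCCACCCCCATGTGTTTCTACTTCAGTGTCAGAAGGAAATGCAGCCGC
Satb1: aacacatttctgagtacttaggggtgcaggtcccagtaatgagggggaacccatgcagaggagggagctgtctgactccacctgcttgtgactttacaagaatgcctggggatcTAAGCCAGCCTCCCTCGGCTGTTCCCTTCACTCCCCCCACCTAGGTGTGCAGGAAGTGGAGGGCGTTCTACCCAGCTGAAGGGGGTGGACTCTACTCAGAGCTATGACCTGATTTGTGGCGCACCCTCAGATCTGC

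Zbtb7b has 2 annotated starts in this set, and the window of neither held a tested interval. The called interval began 164 bases upstream of the window nearer to the 5′ end, which is printed here (chr3:89393379-89393628, minus strand). The start of that window lies inside the gene body, whose 5′ end is at 89393673. Distances of intervals from Zbtb7b are measured from the gene body, and no window was drawn at that end. Capitals here mark GGAAGT, the core letters of Ets factor sites.
Zbtb7b: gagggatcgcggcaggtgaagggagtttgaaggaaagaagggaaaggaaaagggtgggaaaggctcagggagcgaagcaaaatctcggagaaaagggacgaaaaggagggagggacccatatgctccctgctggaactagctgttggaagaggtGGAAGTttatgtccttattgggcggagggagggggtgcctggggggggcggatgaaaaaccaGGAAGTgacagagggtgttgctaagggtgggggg

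GGAAGT, searched on both strands, occurred 2 times in this stretch and 1 time in the Satb1 stretch, there within the tested interval, and in 19.7% of the 32851 stretches of all genes. TGACCA, a core known for the related factor BCL11A in human cells, and TGTGGT, the core of Runx sites, were not found in the 4 printed stretches, and occurred in 11.4% and 14.05% of all stretches. The stretch before the second start of Zbtb7b (chr3:89387672-89387921), which is not printed, held each of these words 1 time and no GGAAGT. The sequence of the called interval itself was not used here.

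The 7 genes differ widely in how densely Bcl11b-bound intervals are packed. Satb1 carried 33 tested intervals, a number reached by 61 of 13605 genes with an interval, and its summed signal ranked 15 among them. Per 10 kb of the stretch that lies nearer to the gene than to its neighbours and within 100 kb, there were 4.96 intervals at Zbtb7b, 3.99 at Cd8b1, 3.52 at Cd8a, 1.26 at Cd4, 1.11 at Satb1, 0.356 at Tox and 0.305 at Themis. That stretch spans 20.1 kb at Zbtb7b and 31.9 kb at Cd4, where neighbouring genes lie close, and 505 kb at Tox. Within 100 kb of Cd4, another 34 tested intervals were nearest to other genes. Of them, 0 were called by edgeR and 0 had an unadjusted p under 0.05, against 1.14% and 12.7% of all tested intervals. Such neighbouring intervals at an unadjusted edgeR p under 0.05 numbered 2 of 29 at Zbtb7b and 0 of 7 at Themis. They numbered 3 of 13 at Cd8a and 3 of 14 at Cd8b1, whose surroundings overlap. None of these neighbours was called, and Tox and Satb1 had no such neighbours. The levels of single intervals, all of the same length, were high: the 101 intervals had a median of 21.2 CPM over the 6 libraries, against 11.8 CPM over all tested intervals. In the top quartile of signal lay 51 of the 101 intervals, or 50.5%. By gene this held for 20 of 33 intervals at Satb1, 10 of 17 at Cd8b1, 7 of 10 at Cd8a, 8 of 18 at Tox, 3 of 4 at Cd4, 2 of 10 at Zbtb7b and 1 of 9 at Themis.

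Summed over all tested intervals of a gene, none of the 7 genes passed the test, in a fit over 13605 genes of which 3.35% passed (edgeR). DESeq2 and limma voom also called 0 of the 7. Cd4 alone had an unadjusted edgeR p under 0.05, as did 15.7% of all genes. Its sums were 96.7, 86.2 and 87.4 CPM in N440K and 101, 98.2 and 124 CPM in wild type libraries. All 3 N440K sums were below the lowest wild type sum, by a narrow margin, with a log2 fold change of -0.26 (95% interval -0.48 to -0.03; edgeR adjusted p = 0.231). Zbtb7b was the only gene of the 7 with a positive value, 152, 180 and 152 CPM in N440K and 148, 135 and 144 CPM in wild type libraries. Its log2 fold change was 0.18 (95% interval -0.01 to 0.37; edgeR adjusted p = 0.361).

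For the others the 95% interval of the log2 fold change of the sum ran from -0.24 to 0.07 at Cd8a, from -0.21 to 0.08 at Cd8b1, from -0.20 to 0.10 at Tox, from -0.19 to 0.06 at Satb1 and from -0.35 to 0.10 at Themis. Satb1 was even across the mutant libraries, with 837, 839 and 838 CPM in N440K and 912, 846 and 871 CPM in wild type libraries. The groups did not overlap there, while the mean sum in N440K was 95.7% of that in wild type, and edgeR gave adjusted p = 0.690. Sums without overlap, found at Zbtb7b, Cd4 and Satb1, were not counted over all genes, so it is not known how common they are.

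**Figure D2:**
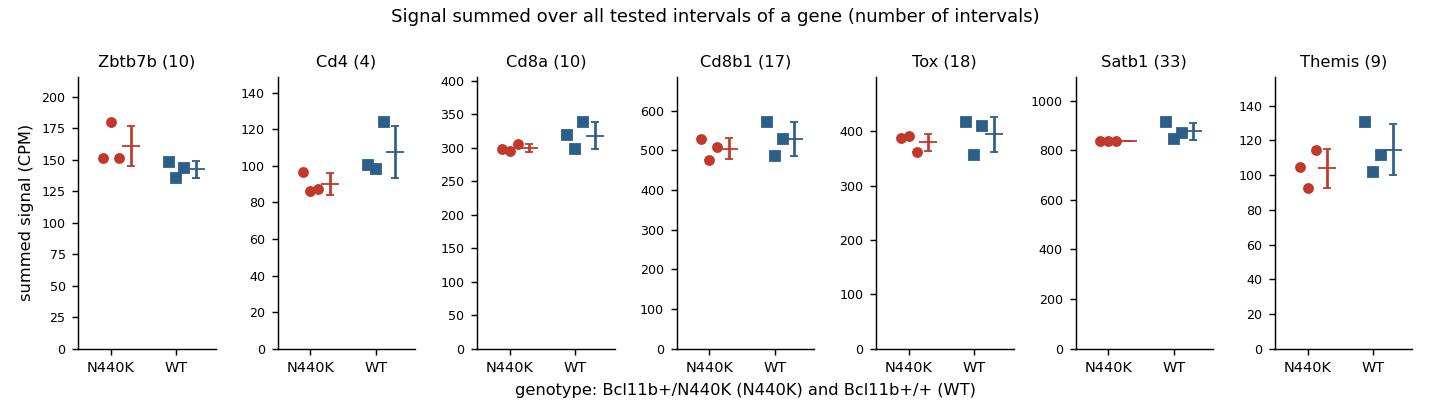
Normalized Bcl11b ChIP signal summed over the tested intervals of each gene (CPM), 1 point per library, with the mean and SD (n = 3) beside the points, N440K left of wild type. The sums of Zbtb7b are higher and those of Cd4 and Satb1 lower in every N440K library than in any wild type library. In the other genes the genotypes overlap. The share of all genes without overlap was not counted, and none of the 7 genes passed the test.

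Zbtb7b, the CD4 commitment factor, carried the 1 called interval. It lies at chromosome 3, 89393793 to 89393993, with its midpoint 0.22 kb upstream of the gene body. The N440K libraries had 17.7, 25.6 and 17.7 CPM and the wild type libraries 8.67, 9.88 and 10.3 CPM. Every N440K library stood well above every wild type library. The means were 20.3 ± 4.57 CPM in N440K and 9.62 ± 0.845 CPM in wild type (SD, n = 3), so that the log2 fold change was 1.05 with an SE of 0.25 and an edgeR adjusted p of 0.0165. Limma voom also called it (adjusted p = 0.0401) and DESeq2 did not (adjusted p = 0.350). The call was lost without N440K replicate 2 (adjusted p = 0.116), without wild type replicate 1 (0.0648) and without wild type replicate 2 (0.0530), with a log2 fold change between 0.87 and 1.15 and an adjusted p between 0.0140 and 0.350 over its 14 alternatives.

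Inside the gene, N440K values lay above wild type values at the 2 intervals nearest to its 5′ end, which did not pass the test. The 3 intervals given here were picked with their values known. From 89391671 to 89391871, the N440K libraries had 23.3, 28.1 and 28.1 CPM and the wild type libraries 18.0, 20.2 and 14.6 CPM, without overlap (edgeR adjusted p = 0.156). From 89390505 to 89390705, they had 17.7, 9.76 and 11.97 CPM in N440K and 6.82, 4.53 and 8.58 CPM in wild type, again without overlap (edgeR adjusted p = 0.105). A further interval, from 89385578 to 89385778, lay 7.995 kb from the 5′ end of the 16.03 kb gene body. It had 9.41, 23.8 and 7.81 CPM in N440K and 9.29, 5.76 and 9.87 CPM in wild type. There N440K replicate 2 alone stood high and the groups overlapped.

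The strongest interval of Zbtb7b had a negative log2 fold change. It lies 2.77 kb upstream (89396346 to 89396546) and had 19.4, 26.8 and 20.8 CPM in N440K and 45.2, 27.2 and 36.1 CPM in wild type libraries. N440K replicate 2 and wild type replicate 2 nearly met, and the others stood apart. The log2 fold change was -0.67 (95% interval -1.05 to -0.29; edgeR adjusted p = 0.0646), which did not pass. It passed with loess offsets (0.0412), without N440K replicate 2 (0.0489) and without wild type replicate 2 (0.0198), out of 14 alternatives whose adjusted p ran up to 0.644. The interval at 0.48 kb, between the called one and this one, had 13.3, 14.6 and 8.85 CPM in N440K and 9.91, 10.3 and 14.6 CPM in wild type, with overlap. Also between them, the interval at 2.43 kb had 17.2, 19.5 and 15.6 CPM in N440K. Its wild type values were 18.0, 22.2 and 15.9 CPM, with overlap (log2 fold change -0.11). Within single libraries the signal at 0.22 kb was 0.914, 0.955 and 0.850 of that at 2.77 kb in N440K, against 0.192, 0.364 and 0.286 in wild type. This ratio was computed after the values had been seen, and no test was made of it. Of the 10 intervals of Zbtb7b, 8 had a positive log2 fold change. Without Zbtb7b the other 91 intervals had a median of -0.08. Of them, 11 (12.1%) had an unadjusted edgeR p under 0.05, 3 higher and 8 lower, against 12.7% of all tested intervals.

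**Figure D3:**
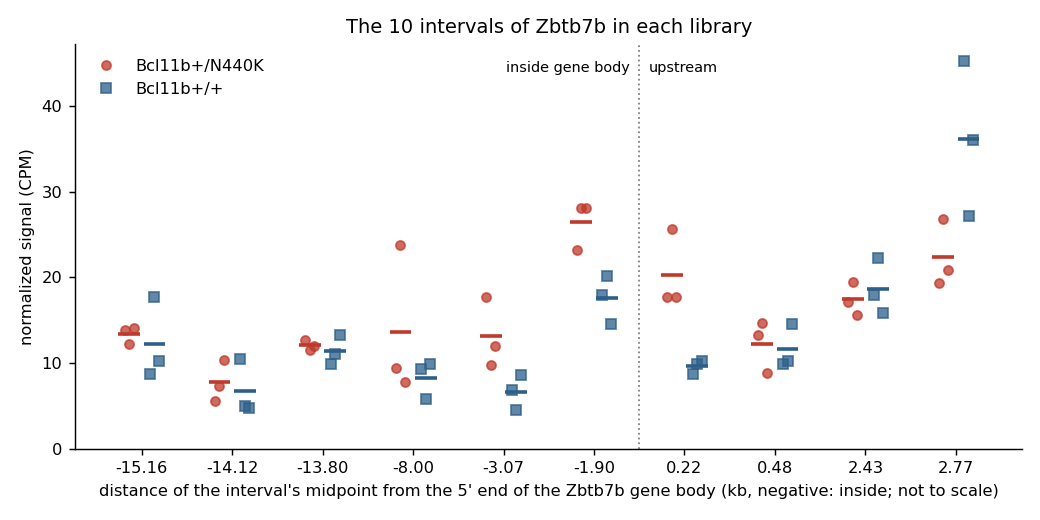
Normalized Bcl11b ChIP signal (CPM) in each library at the 10 intervals of Zbtb7b, ordered by the distance of the midpoint from the 5′ end of the gene body (kb); horizontal bars are means of 3 libraries. The N440K points stand above the wild type points at 0.22 kb and at the 2 intervals nearest to the 5′ end inside the gene, and below them at 2.77 kb.

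The coreceptor gene Cd4 had 4 tested intervals, 3 in the gene body and 1 within 1 kb of its upper end. The interval with the smallest p, at chromosome 6, 124879432 to 124879632, lay inside the gene and had 24.4, 21.4 and 23.9 CPM in N440K and 30.4, 35.4 and 36.1 CPM in wild type libraries. The genotypes did not overlap. The means were 23.2 ± 1.63 CPM in N440K and 33.9 ± 3.12 CPM in wild type (SD, n = 3), and the log2 fold change of -0.56, with an SE of 0.18, did not pass (edgeR adjusted p = 0.116). The adjusted p lay between 0.0820 and 0.826 over the alternatives. Nearer to the upper end, the strongest interval (124885250 to 124885450) had 35.4, 35.4 and 25.5 CPM in N440K and 28.5, 26.8 and 38.6 CPM in wild type. Its groups overlapped fully, with a log2 fold change of 0.02 (95% interval -0.34 to 0.38). The remaining pair, at 124886028 and 124888412, had log2 fold changes of -0.18 and -0.34 with overlapping libraries. Differences between the first interval and the others of this gene were not tested.

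Cd8b1 and Cd8a, which encode the chains of the CD8 heterodimer, lie next to each other on chromosome 6 and share a chain of 27 intervals, many of them outside the gene bodies. Of these, 0 were called by edgeR, DESeq2 and limma voom, and 2 had an unadjusted edgeR p under 0.05, 1 higher and 1 lower. The strongest interval of all 101 lay 3.81 kb upstream of Cd8a (71369519 to 71369719), in the 99.5th percentile of tested intervals. It had 77.5, 63.5 and 82.8 CPM in N440K and 75.6, 60.1 and 73.0 CPM in wild type libraries. The genotypes overlapped, with a log2 fold change of 0.12 (95% interval -0.13 to 0.36). The interval at the start of Cd8a (71373391 to 71373591), whose bases are capitals in the sequence above, had 42.1, 46.4 and 47.9 CPM in N440K and 40.3, 55.6 and 48.9 CPM in wild type.

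At Cd8b1 several intervals reached about the same height. One lay 0.18 kb below the lower end of the gene body (71322511 to 71322711), with 62.0, 62.2 and 66.1 CPM in N440K and 77.4, 59.3 and 50.2 CPM in wild type libraries. The strongest lay inside the gene (71333097 to 71333297), with 67.6, 62.2 and 58.3 CPM in N440K and 62.0, 57.6 and 71.7 CPM in wild type. Both overlapped between the genotypes, and the 95% interval of the log2 fold change ran from -0.21 to 0.32 at the first and from -0.28 to 0.23 at the second. The smallest p of Cd8b1 belonged to an interval between the genes, 16.4 kb above Cd8b1 (71353747 to 71353947). It had 60.9, 46.4 and 41.1 CPM in N440K and 74.97, 48.6 and 65.2 CPM in wild type, which overlapped (log2 fold change -0.33, 95% interval -0.62 to -0.03; edgeR adjusted p = 0.318). For Cd8a the smallest p was at an interval 2.10 kb upstream, with 31.6, 31.1 and 27.1 CPM in N440K and 27.3, 44.5 and 35.6 CPM in wild type (edgeR adjusted p = 0.508). Every log2 fold change of the Cd8b1 and Cd8a intervals lay between -0.45 and 0.55.

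**Figure D4:**
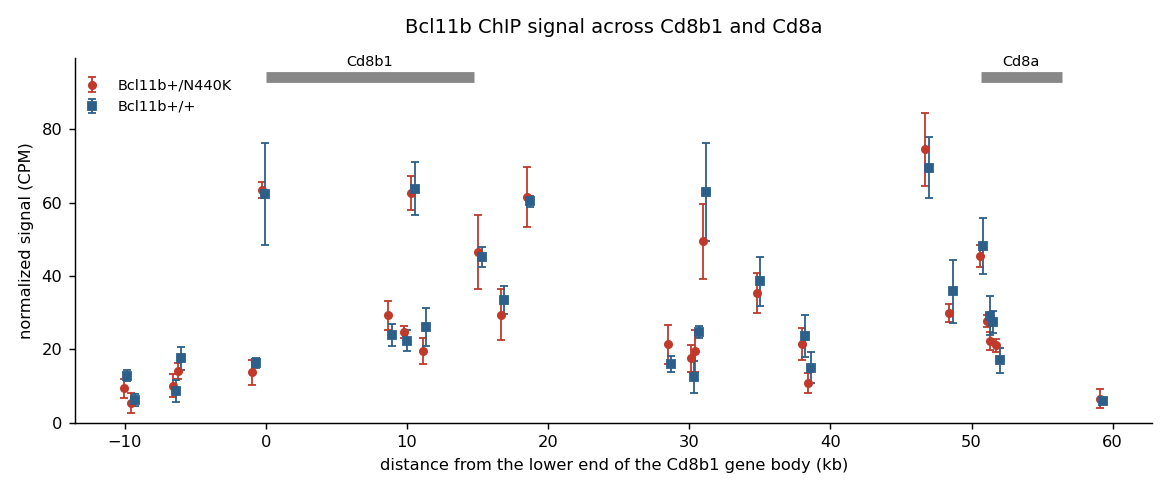
Normalized Bcl11b ChIP signal (CPM, mean and SD of 3 libraries) at the 27 intervals of Cd8b1 and Cd8a by distance from the lower end of the Cd8b1 gene body (kb), with N440K and wild type points drawn slightly apart. Grey bars are gene bodies. Both genotypes show the same tall intervals, the highest 3.81 kb upstream of Cd8a.

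Satb1, the chromatin organiser, had the most intervals, 17 inside the gene body, 12 upstream and 4 downstream. Of the 33, 0 were called by edgeR, DESeq2 and limma voom, and 5 had an unadjusted edgeR p under 0.05, 1 higher and 4 lower. The tallest (chromosome 17, 51832996 to 51833196) lay between the windows of 2 annotated starts near the 5′ end. It had 61.5, 80.5 and 61.9 CPM in N440K and 68.8, 65.5 and 68.7 CPM in wild type libraries. Only N440K replicate 2 stood out, and the log2 fold change was 0.00 (95% interval -0.25 to 0.25). The smallest p of Satb1 was at an interval inside the gene (51814485 to 51814685), with 50.4, 44.5 and 46.8 CPM in N440K and 31.0, 33.8 and 36.1 CPM in wild type. The N440K libraries were all above the wild type libraries, with a log2 fold change of 0.48 ± 0.15 (SE), which did not pass (edgeR adjusted p = 0.105; between 0.0796 and 0.786 over the alternatives).

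Neighbouring intervals of Satb1 formed runs, described after their values had been seen as intervals with midpoints at most 2 kb apart. The run that holds the interval with the smallest p had 6 members. Its summed signal was 215, 222 and 217 CPM in N440K and 200.7, 199 and 200.5 CPM in wild type. The mean sums were 218.2 and 200.0 CPM, of which that interval alone held 47.3 and 33.6 CPM. Because the run was picked through that interval, its sums are no separate support. The run at the 5′ end, also of 6, had 223, 279 and 214 CPM in N440K and 270.1, 261 and 248 CPM in wild type, with overlap. A run of 4 at the 3′ end had 40.4, 33.6 and 40.6 CPM in N440K and 64.4, 44.5 and 43.8 CPM in wild type, all 4 with a negative log2 fold change. A run of 3 upstream, 46.1 to 47.1 kb from the gene, had 116, 91.5 and 104 CPM in N440K and 86.1, 89.3 and 103 CPM in wild type, all 3 with a positive one. No test was made of these runs, and intervals within a run are not independent.

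Farther upstream of Satb1, libraries of 1 genotype differed at an interval that was singled out with its values known. At 66.4 kb (51899574 to 51899774), the N440K libraries had 24.9, 10.98 and 13.0 CPM and the wild type libraries 31.0, 22.2 and 25.3 CPM. N440K replicate 1 lay within the wild type range and the other pair of N440K libraries below it (log2 fold change -0.65; edgeR adjusted p = 0.155). Without N440K replicate 1 this interval was called lower, with a log2 fold change of -1.08 (edgeR adjusted p = 0.0318). At 73.3 kb (51906514 to 51906714) the values were 46.0, 34.8 and 41.1 CPM in N440K and 39.0, 40.3 and 43.8 CPM in wild type, with overlap.

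Tox had 18 tested intervals, 16 of them inside its long gene body of 305 kb. Of these, 0 were called by edgeR, DESeq2 and limma voom, 1 had an unadjusted edgeR p under 0.05, and the genotypes overlapped at every one. Signal was concentrated in 2 runs of 5 intervals each, 1 centred 89.3 kb below its upper end and 1 at that end, which held 38.4% and 39.3% of the wild type signal of the gene. The first run summed to 142, 148 and 139 CPM in N440K and 164, 135 and 145 CPM in wild type libraries. The second summed to 157, 146 and 126 CPM in N440K and 152, 145 and 157 CPM in wild type. The tallest interval (chromosome 4, 6990539 to 6990739) belongs to the second run and had 58.7, 55.5 and 54.7 CPM in N440K and 52.7, 52.3 and 55.4 CPM in wild type (log2 fold change 0.07, 95% interval -0.19 to 0.34). The smallest p was at a weak interval inside the gene (6817346 to 6817546), where N440K replicate 2 had 17.7 CPM and the other N440K libraries had 9.41 and 6.77 CPM. The wild type libraries had 7.44, 6.18 and 6.44 CPM there, and the interval did not pass (edgeR adjusted p = 0.323).

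**Figure D5:**
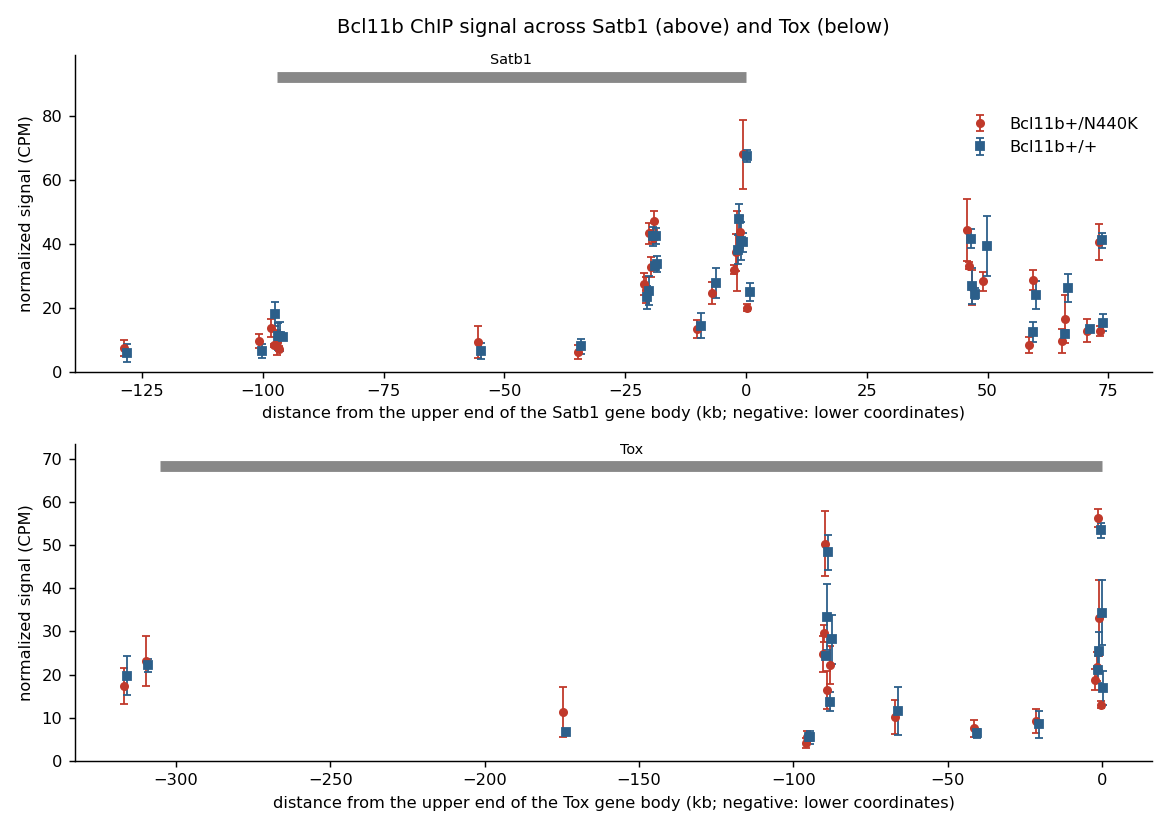
Normalized Bcl11b ChIP signal (CPM, mean and SD of 3 libraries) at the 33 intervals of Satb1 and the 18 intervals of Tox by distance from the upper end of the gene body (kb), with N440K and wild type points drawn slightly apart. Grey bars are gene bodies. Signal gathers in runs at the upper gene end and inside the gene in both genotypes, and at Satb1 also upstream.

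Themis, the adaptor of positive selection, had 9 tested intervals, and 65.3% of their wild type signal lay in a run of 4 at its 5′ end. The strongest (chromosome 10, 28668250 to 28668450) spans the annotated start, with its bases before the start shown as capitals above. It had 37.7, 37.2 and 33.3 CPM in N440K and 33.5, 30.5 and 36.1 CPM in wild type libraries, with overlap (log2 fold change 0.11, 95% interval -0.22 to 0.44). The last interval of this run (28669510 to 28669710) had the smallest p, with 11.1, 6.10 and 7.29 CPM in N440K and 15.5, 12.4 and 14.6 CPM in wild type. There the N440K libraries lay below the wild type libraries, and the log2 fold change of -0.77 ± 0.29 (SE) did not pass (edgeR adjusted p = 0.199; between 0.150 and 0.969 over the alternatives). The interval beside it (28669266 to 28669466) had -0.57, with 14.4, 9.76 and 7.81 CPM in N440K and 21.1, 13.6 and 14.2 CPM in wild type, with overlap. The Themis intervals were called 0 times by edgeR, DESeq2 and limma voom, and 2 had an unadjusted edgeR p under 0.05.

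Among 21 other genes of CD4 and CD8 lineage choice, 2 of 331 tested intervals were called, 1 higher and 1 lower, which is 0.604% against 1.14% of all tested intervals. An unadjusted edgeR p under 0.05 was found for 33 (9.97%, against 12.7% of all). Their median log2 fold change was 0.00. The list held transcription factors (Runx1, Runx3, Cbfb, Gata3, Myb, Patz1, Tcf7, Lef1, Tcf12, Tcf3, Zbtb7a, Ikzf1), chromatin remodellers (Chd4, Mta2, Smarca4) and signalling genes (Il7r, Socs1, Stat5a, Stat5b, Lck, Cd69). The higher call lay inside Runx3, the CD8 lineage factor, with 11.6, 16.5 and 14.1 CPM in N440K and 4.34, 8.65 and 4.72 CPM in wild type libraries (edgeR adjusted p = 0.0349). The lower call lay 61.1 kb from Gata3, which promotes the CD4 lineage, with 1.11, 1.83 and 1.04 CPM in N440K and 6.82, 5.35 and 8.15 CPM in wild type (edgeR adjusted p = 0.0165). The Gata3 interval held 2, 3 and 2 reads in the N440K libraries and passed the filter on low counts through the wild type libraries only, so it could enter the test only because it was high there. The Runx3 interval held 7, 21 and 11 reads in the wild type libraries, too few to pass this filter by themselves. It entered the test through the N440K libraries, where it was high. The genotypes did not overlap at either interval. DESeq2 and limma voom called 0 of the 331. The genes with the most uneven signs, picked with their values known, were Gata3, with 15 of 17 log2 fold changes negative, Stat5b, with 14 of 17 negative, and Socs1, with 11 of 13 positive, beside 49.5% negative over all tested intervals. Signs varied with signal: 39.0% were negative among all tested intervals in the top quartile of CPM, where 10 of the 13 Socs1 intervals lay. At Runx3, picked in the same way, 7 of 28 intervals had an unadjusted edgeR p under 0.05, all higher, beside 12.7% of all tested intervals.

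The intervals with the smallest p at Tcf7 and at Patz1 did not pass. Tcf7, the TCF-1 gene, had 7.75, 9.15 and 9.37 CPM in N440K and 19.2, 15.6 and 16.7 CPM in wild type at an interval 16.2 kb away, without overlap (edgeR adjusted p = 0.0507). It passed among intervals at or above the median CPM (0.0421), with the replicate block (0.0497) and when scaled by total counts (0.0444). Patz1, which encodes MAZR, a repressor that acts at Cd8 and Zbtb7b, had 44.3, 64.7 and 47.9 CPM in N440K and 40.9, 39.9 and 36.9 CPM in wild type inside the gene, without overlap (edgeR adjusted p = 0.189).

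Total counts per library ranged from 1812952 to 2123877 in N440K and from 1787899 to 2661343 in wild type. At loci that mark T cells, all 10 genes listed had tested intervals, 83 in all, which summed to between 1840 and 1942 CPM in N440K and between 1777 and 2022 CPM in wild type libraries. Loci of B cells (4 of 6 genes, 16 intervals), myeloid cells (3 of 6, 23), thymic epithelium (3 of 6, 13) and erythroid cells (2 of 4, 3) held fewer, and 0 intervals of these 5 lists were called by edgeR. The B cell loci summed to between 135 and 158 CPM in N440K and between 159 and 167 CPM in wild type libraries, without overlap. The myeloid loci summed to between 264 and 279 CPM in N440K and between 273 and 357 CPM in wild type libraries. There 7 of 23 intervals (30.4%) had an unadjusted edgeR p under 0.05, 1 higher and 6 lower, against 12.7% of all tested intervals. Such intervals numbered 3 of 83 at the T cell loci and 2 of 16 at the B cell loci. They numbered 0 of 13 at thymic epithelium loci and 0 of 3 at erythroid loci. Sums of thymic epithelium and erythroid loci overlapped between the genotypes. ChIP signal near a gene does not show that the cell type is present, and a part of other cells in these results was not tested. Input from wild type thymocytes (2 libraries) was not analysed here, so no background was taken off the values.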

How the data were processed

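The members and lists were chosen with earlier results of these data known. Per the labels' protocols, thymocytes were cross-linked with formaldehyde and sonicated, and chromatin was precipitated with an antibody against Bcl11b. Per the submitters' processing notes, the tools were fastp 0.20.0, Bowtie2 2.3.5, SAMtools 1.9, MACS2, bedtools and edgeR 3.38.2, on mm10, with no role or order given; the sources used here do not say whether intervals were called on pooled libraries.

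The authors deposited raw counts for 93708 intervals. They also deposited CPM values for 63098 of them, and dividing each library by 1 constant gave whole reads for 100% of values (tolerance 0.01). All CPM values of single intervals in the text are the authors' deposited ones. The test run on the recovered reads called 720 intervals, the same number as on the counts.

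Counts were filtered by filterByExpr (edgeR 4.0.16, R 4.3.3), scaled by TMM and tested across all 63098 intervals with edgeR's quasi-likelihood test, two-sided, genotype only, with Benjamini-Hochberg adjustment over all of them. SE is the log2 fold change over the square root of the F value, and 95% intervals use the fit's degrees of freedom. Intervals at no more than 100 kb from 21900 protein-coding gene bodies were also summed per gene and tested over 13605 genes in the same way, with sums in CPM of scaled gene totals. Libraries held 1609762 to 2400250 counts in tested intervals, with scaling factors of 0.990 to 1.01. Chi-square per degree of freedom was 1.24 to 1.42 within a genotype and 1.55 to 1.77 across genotypes, and none of the libraries was treated as a duplicate. The test was also run on simulated counts with the same dispersion at every interval. Its outcome is not given here and does not bear on how the tools differ on these data.

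Named were the called intervals and, per gene, the interval with the smallest p and that with the highest mean CPM; in the list of other lineage genes, the called ones and the smallest p of Runx3, Gata3, Tcf7 and Patz1. All other intervals named in the text were chosen after their values were seen. Alternatives were DESeq2 1.42.0, limma voom (limma 3.58.1), other scalings and filters, other distances (50 kb, inside the gene body), an adjusted p of 0.1, a replicate block and leaving out each library. The strand of Cd4, Cd8b1 and Tox was not given in the tables used here, so their positions are given as below or above the gene body.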

Additional observations from a re-analysis of the deposited data

How the results depend on the processing

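The called interval count of the 7 genes (1) was 0 with DESeq2, 2 with loess offsets (span 0.3), 2 at an adjusted p of 0.1, 0 inside gene bodies, and between 0 and 2 without 1 library: 0 without wild type replicate 1, and 2 without N440K replicate 1, where the Satb1 interval joined. Without N440K replicate 2 and without wild type replicate 2 the 1 call was the lower interval 2.77 kb upstream of Zbtb7b instead. The median log2 fold change of -0.05 was -0.0896 at or above the median CPM, -0.0296 with limma voom, -0.0850 with loess offsets, 0.0107 with no filter (128 intervals), -0.0199 within 50 kb, -0.00564 inside gene bodies and -0.0613 to -0.0113 without 1 library. The list of other lineage genes, with 2 calls, had 0 with DESeq2 and limma voom, 1 with loess offsets (Runx3), 3 with the replicate block and 3 when scaled by total counts (Tcf7 joining in both). At or above the median CPM, a filter that removes the Runx3 and Gata3 intervals, the 1 call was the Tcf7 interval. Without 1 library it had 0 to 2, with 0 without wild type replicate 1, wild type replicate 3 or N440K replicate 3, 1 without N440K replicate 1 (Runx3), and a Runx1 interval in place of the Runx3 one without N440K replicate 2. No summed gene passed in the 12 alternatives run. Over all intervals, against 720, DESeq2 called 60, limma voom 318, a threshold of 0.1 gave 1361, the filter at the median CPM 327, and leaving out 1 library 301 to 588; over gene sums DESeq2 called 161, sums with no filter 690, and leaving out 1 library as few as 260, against 456. The cause was not tested. With replicate number as a block, 1 interval of the 7 genes and 753 of all were called; deviations of same-numbered libraries correlated at -0.00372 to 0.0577 and other pairs at -0.047 to 0.0173, not every library best with its own number, so the numbers were not taken to pair libraries. Depth limits weak intervals most: the median SE of the log2 fold change was 0.38 for members in the lowest CPM quartile of all intervals and 0.18 for those in the highest.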

Other observations

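A further 27 intervals near these genes were in the raw count table and were left out by the filter on low counts, 11 at Tox, 8 at Satb1 and 8 at Themis, which is 21.1% of the 128 intervals there, against 32.7% of all intervals. Their counts ranged from 0 to 18 reads per library. Tested with no filter, 0 were called by edgeR, in a fit that called 882 intervals of the raw count table. Of the 27, 5 had an unadjusted edgeR p under 0.05, with a smallest adjusted p of 0.0846. The share of all intervals at such a p was not taken in this fit, and was 12.7% with the filter. That interval lay 17.0 kb upstream of Satb1, with 4, 8 and 9 reads in N440K and 1, 1 and 3 reads in wild type libraries.

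Among 1508 genes with at least 10 intervals, the summed log2 CPM of Sec14l1, Lcp2 and Nabp1 was most like that of Cd4 over the 6 libraries, with Pearson's r of 0.981, 0.979 and 0.976. With 6 libraries and so many genes compared this is a description only, and the libraries share their depth and scaling.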
